A study of Arabidopsis thaliana with 6 samples.

Results

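Messenger RNA keeps an intron either because splicing is not finished or because that intron is left in the mature transcript, and intron retention is the most common form of alternative splicing in plants. Reads that enter introns can also come from another gene, from a gene copy elsewhere in the genome, or from a gene model whose exons differ from those of the transcript. The 56 genes described here had many such reads, both in number and as a share of all their reads, in stems of *Arabidopsis thaliana*. They were chosen by the deposited read numbers themselves. A gene entered the group when it had a name and an exon length, at least 200 intron reads over the 6 libraries, and intron reads equal to at least 10% of its gene reads. Of 27200 genes with a name and an exon length, 533 had 200 intron reads, and the remaining 477 of these stayed below the 10% share. A 10% share at any number of intron reads was met by 723 genes. The intron-read number and its share therefore describe how the group was made and are given without a test. The choice used the sum of both treatments and not their difference. All 56 genes also met the share in the DEX libraries alone, but 54 did in the Mock libraries alone, and AT1G74440 and AT3G48030 reached it only through the DEX libraries.

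The libraries were made from second internodes of plants 15 to 20 cm tall that carried p35S:Myc-GR-bdl. In this line the viral 35S promoter, which is active in most plant tissues, drives a stabilized form of the AUX/IAA repressor BODENLOS (bdl) joined to the steroid-binding domain of the glucocorticoid receptor (GR), and dexamethasone (Dex) lets the fusion enter the nucleus. Plants received 15 µM Dex (DEX, 3 libraries) or a mock solution (Mock, 3 libraries) for 3 h, and both groups carried the transgene. Titles and source names of the samples give this genotype, although the text on growth conditions speaks of WT (Col-0). Plants lacking the transgene were not analysed here, and each library pooled several plants according to the study. Named genes held 37457396, 31397212 and 37703144 reads in DEX libraries 1, 2 and 3, and 30564459, 33022541 and 37761257 reads in Mock libraries 1, 2 and 3. The cellulose synthase gene *CESA4* of secondary walls was abundant in all 6 libraries, whereas the seed storage gene *CRA1* had at most 0.0267 reads per 1000000 library reads (CPM, here before scaling). The pollen gene *VGD1* had 1.05 CPM in DEX library 2 and at most 0.133 CPM in any other library. Ribosomal RNA took 0.141% ± 0.0226 of reads in DEX and 0.369% ± 0.198 in Mock (SD, n = 3 each). In these bulk samples fewer cells of a type and less RNA per cell cannot be told apart.

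What the deposited column of intron reads counts had to be read from its values. It never exceeded the exon reads in any gene of any library. In 7417 genes, 40 of the 56 among them, exon and intron reads together came to more than the gene reads. These relations fit reads that cross an exon-intron border and are also counted as exon reads, but no source used here defines the column. Reads wholly inside introns were therefore also obtained, as gene reads less exon reads. The exon-exon reads, which join neighbouring exons, gave the spliced counterpart.

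Intron reads stood at 37179 in the 56 genes, of 187380 gene reads, which is 19.84%. Over all 27200 genes the value was 0.3556%. The 56 genes thus held 5.071% of all intron reads and 0.09089% of all gene reads. Their joint share was 19.8%, 19.6% and 20.2% in DEX libraries 1, 2 and 3, against 19.3%, 19.8% and 20.1% in Mock libraries 1, 2 and 3. The 95% Wilson interval of each of these values reached at most 0.5 points to either side and covers counting error only. The mean was 19.9% ± 0.306 in DEX and 19.7% ± 0.404 in Mock (SD, n = 3 each), and the ranges of the groups overlapped. Over all genes, intron reads made up 0.352% ± 0.0312 in DEX and 0.352% ± 0.0398 in Mock.

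**Figure D1:**
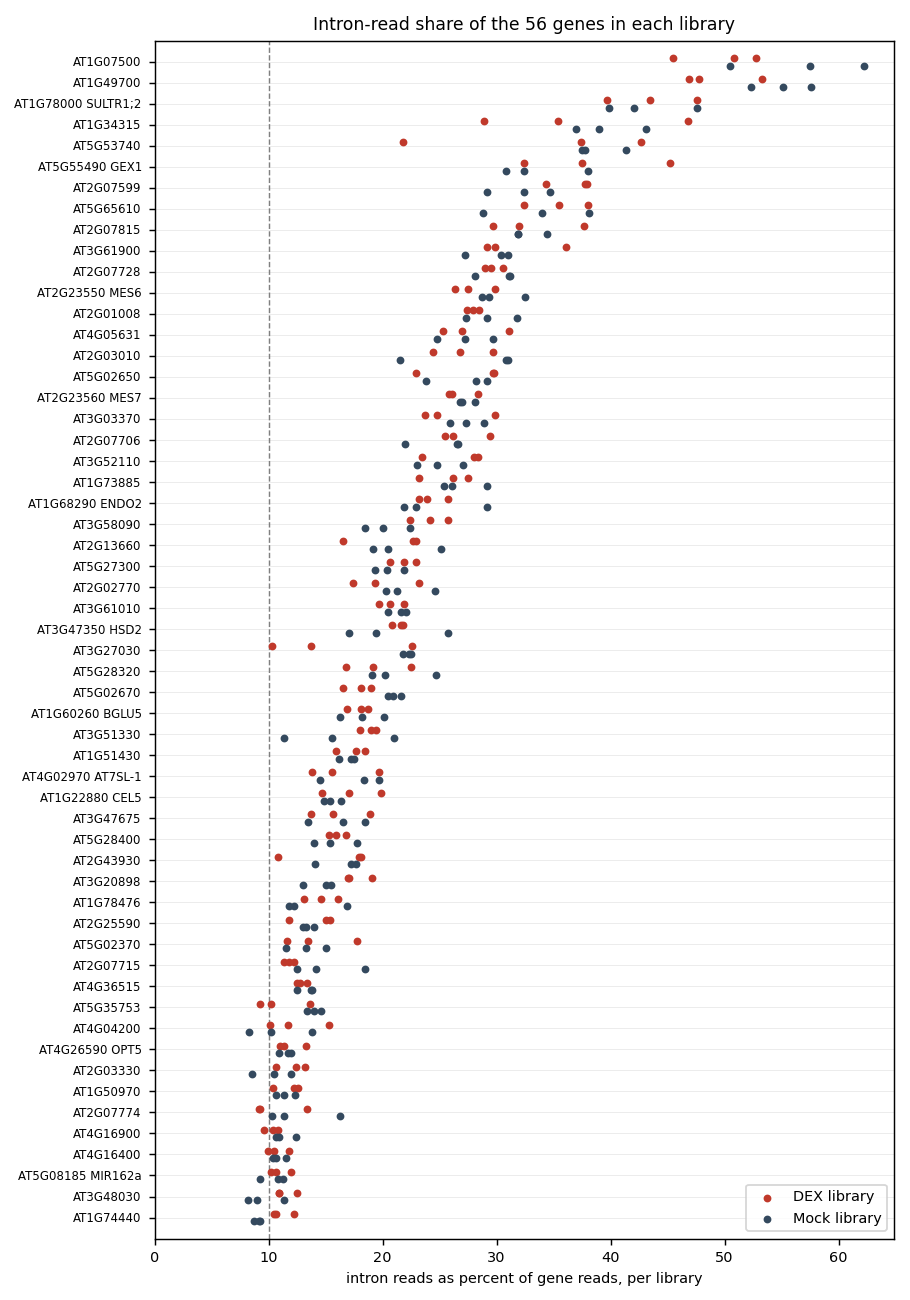
Intron reads as percent of gene reads (x axis) for each of the 56 genes (rows, ordered by the share over all libraries), with 1 point per library, DEX in red above Mock in dark blue. The dashed line is the 10% used to choose the genes; 13 of the points fall below it, and in most rows the colours are mixed.

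Single genes covered a wide range, from just above the limit to 53.3% in AT1G07500. The median share was 20.9%, beside 1.44% in the 477 genes below the limit. The shares were fixed over the sum of libraries, and 47 of the 56 genes were at or above 10% in each of the 6. Counting error alone gave a half-width of 0.6 to 4.35 points for the share of a gene over all libraries. The genes just inside the limit were AT1G74440 (10.24%), AT3G48030 (10.44%) and *MIR162a* (10.69%), and the genes just outside it were AT3G06640 (9.928%), AT3G29130 (9.887%) and AT3G59330 (9.801%).

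Splice sites of 3 genes are given because these genes differed in the proportions of exon-exon reads, intron reads and reads wholly inside introns. Sequences are from RefSeq TAIR10.1, run 5′ to 3′ on the strand of the gene, and carry the first and last bases of the intron in capitals. AT3G27030 has a single intron of 1289 bases on chromosome 3, AT7SL-1 a single intron of 868 bases on chromosome 4, and AT1G73885 introns of 95, 92 and 79 bases on chromosome 1.
AT3G27030 donor, chr3:9974015-9974038, minus strand: aaattcacatGTacatcggctaat
AT3G27030 acceptor, chr3:9972734-9972757, minus strand: ctccaccgctttctaaAGttgtaa
AT7SL-1 donor, chr4:1318191-1318214, plus strand: gtttcacttgGTaagcagtgagtt
AT7SL-1 acceptor, chr4:1319051-1319074, plus strand: aacactaattactcacAGcttgga
AT1G73885 first donor, chr1:27786978-27787001, plus strand: tcaagaaccgGTcttcacgttgtc
AT1G73885 first acceptor, chr1:27787065-27787088, plus strand: gttcctacaacgactaAGaacagc
AT1G73885 middle donor, chr1:27787315-27787338, plus strand: ccttttcgcgGTaaatttctgtac
AT1G73885 middle acceptor, chr1:27787399-27787422, plus strand: ttcaaaatgttgtaacAGctaatc
AT1G73885 last donor, chr1:27787573-27787596, plus strand: gtggctcctaGTttggaatagttt
AT1G73885 last acceptor, chr1:27787644-27787667, plus strand: ttggggtgttttaaaaAGccatat
All 5 introns begin with GT and end with AG. In the 24 genes whose exon number and exon length in the tables equal those of a reference transcript, 131 of 132 introns (99.2%) had these ends, and 99% did in all 3216 genes matched in the same way.

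Exon-exon reads were few beside intron reads in most of the 56 genes. In 49 of the 56 there were fewer exon-exon than intron reads, compared with 26 of the 477 genes below the limit. The median gene of the group had 8.11 exon-exon reads for every 100 intron reads, and the median of the 477 was 1394. Intron reads were chosen to be high in the 56 genes, and exon-exon reads are part of the gene reads by which the share was formed. The contrast therefore follows in part from the choice, and it is a description without a test. Relative to gene reads, the 56 genes had 14338 exon-exon reads among 187380, and all 27200 genes had 33919851 among 206161563. No exon-exon read at all was counted in 5 genes, among them AT3G27030, and another 20 genes had between 1 and 20.

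**Figure D2:**
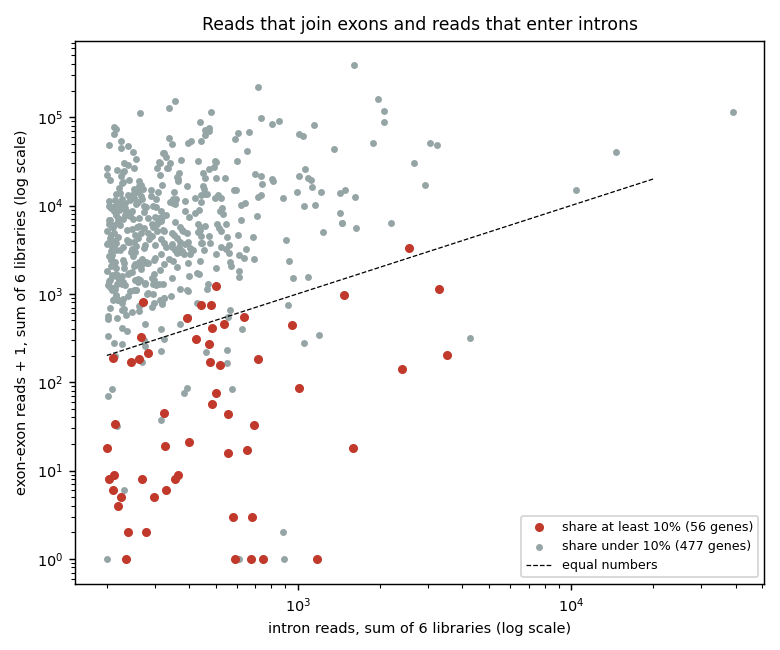
Exon-exon reads plus 1 (y axis) against intron reads (x axis), each summed over 6 libraries on log scales, for the 56 genes with a share of at least 10% (red) and the 477 genes with 200 intron reads and a lower share (grey). The dashed line marks equal numbers; 49 red points and 26 grey points lie under it.

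Some of the genes with most intron reads encode enzymes and transporters. *SULTR1;2* (AT1G78000), a high-affinity sulfate transporter best known from root uptake, had the most, 3507 intron reads against 200 exon-exon reads, and a share of 43% (95% Wilson interval 41.9% to 44.1%). Its level moved widely between libraries of either group. Its intron reads stood at 13.3, 8.18 and 34.4 CPM in DEX libraries 1, 2 and 3, against 7.88, 11 and 23 CPM in Mock libraries 1, 2 and 3. The share stayed at 43.6% ± 3.94 in DEX and 43.2% ± 3.93 in Mock. *HSD2* (AT3G47350), annotated as a hydroxysteroid dehydrogenase, had 1586 intron reads and 17 exon-exon reads, with 3334 further reads wholly inside introns. The methyl esterase gene *MES7* had 1008 intron and 86 exon-exon reads, and its relative *MES6* had 557 and 15. *BGLU5* (AT1G60260), annotated as a beta glucosidase, was the exception among the most abundant genes, since its 3306 exon-exon reads exceeded its 2546 intron reads.

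Genes of other kinds stood beside them. AT1G73885, annotated as an AT-rich interactive domain protein, had 1123 exon-exon reads and 3292 intron reads over the 3 short introns shown above, so that spliced and unspliced reads were both frequent. AT3G61010, of the ferritin and ribonucleotide reductase-like family, had 962 exon-exon and 1481 intron reads. AT4G02970 is annotated as 7SL RNA1, the RNA part of the signal recognition particle that brings ribosomes to the endoplasmic reticulum. The reference lists this locus as protein-coding with 2 exons, and which RNA its reads came from was not tested. Of its 14107 gene reads 9323 lay wholly within its single annotated intron, at 183% of the density over its exons. *MIR162a* encodes the precursor of miR162, the microRNA that targets the transcript of DICER-LIKE1 and so acts on the enzyme that makes microRNAs. The tables give this locus 10 exons, 480 intron and 757 exon-exon reads, whereas the reference holds a precursor of a single exon. The mature miR162a-3p, with bases 2 to 8 in capitals as its seed, lies at chr5:2634936-2634956 on the minus strand.
miR162a-3p: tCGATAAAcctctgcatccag
The libraries measured the longer locus and not this mature RNA.

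Apart from *SULTR1;2*, the 8 genes with the highest shares had fewer reads. AT1G07500, with 270 intron reads of 507 gene reads, had 7 exon-exon reads and none wholly inside an intron. The tables give it 2 exons and the reference 1. AT1G49700, an uncharacterized plant protein, followed at 52%. *GEX1* (AT5G55490), known as a gamete-expressed gene, reached 35.8% with 212 intron and 8 exon-exon reads. AT1G34315, AT5G53740, AT2G07599 and AT5G65610 lay between 34.6% and 38.6%.

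Reads wholly inside introns allow a comparison per length. In the 24 genes with matched structures, the density of such reads over introns had a median of 29.3% of the exon density, and it ran from 0.811% in AT3G27030 to 183% in AT7SL-1. In 37 matched genes below the limit the median was 4.38%. The choice by intron share favours such a contrast, so it is a description without a test. Matched structures covered 42.9% of the 56 genes and 7.77% of the genes below the limit. AT3G27030 had 591 reads in the intron column, 68 wholly inside the intron and none that joined the exons. AT3G48030, annotated as a hypoxia-responsive and zinc finger protein, was the opposite case, with 537 intron reads and 2189 wholly inside.

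Several features of the group bear on where its reads came from. Fewer than 90% of gene reads were unique in 18 of the 56 genes (32.1%), compared with 60 of the 477 below the limit (12.6%). In AT2G13660 the unique share was 0.275%, in AT4G16400 10.2%, and in AT5G28320 and AT5G28400, a pair both annotated as embryo defective protein, 10.7% and 11.2%. Values of these genes are uncertain, because the counting could divide reads among copies. Another feature was found in 6 genes (AT2G07599, AT2G07706, AT2G07715, AT2G07728, AT2G07774 and AT2G07815, of which the last is also among the 18), which lay on chromosome 2 between positions 3303766 and 3456127. Over their whole length they matched the mitochondrial genome at 99.6% to 100% identity. In spite of this match, 79% to 100% of their gene reads were counted as unique. The 6 genes had 2446 intron and 36 exon-exon reads together, and their reads cannot be told apart from mitochondrial transcripts by these tables. Another annotated gene overlapped 22 of the 56 (39.3%), and the overlap was on the same strand in 10 (17.9%). Among the genes below the limit these values were 33.4% and 7.77%. In 16 of the 56 every reference transcript had fewer exons than the tables. Exon number and length equalled those of a reference transcript in 42.9% of the 56. This held for 7.77% of the genes below the limit and 15.1% of all genes with several exons. The tables hold a single exon number and length per gene, and these were set against single transcripts. Genes with several transcripts can therefore fail to match, as *SULTR1;2* did with 14 exons in the tables and 8 to 13 in its 7 reference transcripts. The same limit holds for the 16 genes. The part of these features in the intron reads was not tested.

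Intron reads, exon reads and the ratio of both were compared between DEX and Mock. Both groups carried the transgene, so effects of bdl and of Dex itself cannot be told apart in this comparison. All 56 genes passed the count filter in each comparison. For intron reads 1 gene rose and 1 fell at an adjusted p below 0.05 (edgeR quasi-likelihood test over 2725 genes). Of all genes tested, 5.17% rose and 2.06% fell. For exon reads 2 of the 56 rose and 2 fell, beside 6.53% and 5.63% of 18956 genes. The median log2 change of the 56 was -0.02 for intron and -0.02 for exon reads, with medians of 0.0184 and -0.00811 over all genes tested.

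AT3G27030, an uncharacterized gene, fell in both comparisons. Its intron reads stood at 0.641, 1.02 and 2.81 CPM in DEX libraries 1, 2 and 3, against 3.86, 3.97 and 4.58 CPM in Mock libraries 1, 2 and 3. All DEX values lay below all Mock values, with DEX library 3 well above the other two of its group. The log2 change was -1.47 ± 0.40 (SE, adjusted p = 0.0339, edgeR). Exon reads averaged 8.48 ± 3.11 CPM in DEX and 18.2 ± 1.52 CPM in Mock (SD, n = 3 each), a log2 change of -1.10 ± 0.24 (SE, adjusted p = 0.0239, edgeR). All of its reads were unique. Without DEX library 3 the intron change was -2.32 on the log2 scale. With reads wholly inside introns it was -0.87 ± 0.50 (SE, adjusted p = 0.503) and not called. The intron call was also lost without DEX library 1 (adjusted p = 0.132), without DEX library 2 (adjusted p = 0.169) and without Mock library 2 (adjusted p = 0.0674). The exon call was lost without DEX library 2 (adjusted p = 0.0868) or any 1 Mock library (adjusted p = 0.0549 to 0.0726).

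AT1G74440, annotated as a putative membrane protein of the endoplasmic reticulum, rose in both comparisons, and it belongs to the group only through its DEX libraries, so that its intron reads in DEX were partly selected to be high. It had 2.51, 2.49 and 2.48 CPM of intron reads in DEX libraries 1, 2 and 3, against 1.35, 1.38 and 1.18 CPM in Mock libraries 1, 2 and 3. The groups did not overlap and the log2 change was 0.93 ± 0.27 (SE, adjusted p = 0.0453, edgeR). Exon reads averaged 18.3 ± 1.62 CPM in DEX and 12.2 ± 0.445 CPM in Mock, a log2 change of 0.59 ± 0.10 (SE, adjusted p = 0.00801, edgeR). Only 56.6% of its gene reads and 26.4% of its intron reads were unique. With unique reads alone the changes were 0.29 ± 0.41 for introns (SE, adjusted p = 0.83) and 0.28 ± 0.14 for exons (SE, adjusted p = 0.291). On the opposite strand it overlaps *MYB95* (AT1G74430), a MYB transcription factor gene. *MYB95* had 41.1 ± 14.8 CPM in DEX and 6.20 ± 2.73 CPM in Mock, and its exon reads rose by 2.73 ± 0.38 on the log2 scale (SE, adjusted p = 0.00367). Library preparation marked the strand, but no source used here says whether reads were counted by strand, and the part of *MYB95* in the result was not tested. The intron call was also lost without any 1 of the 6 libraries (adjusted p = 0.0713 to 0.146).

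*BGLU5* rose in exon reads. It had 79.4, 84.8 and 74.4 CPM in DEX libraries 1, 2 and 3, against 49.8, 55.6 and 46.7 CPM in Mock libraries 1, 2 and 3, with no overlap between groups. The log2 change was 0.65 ± 0.09 (SE, adjusted p = 0.00433, edgeR), and the call held in all 14 alternatives run for exon reads, in which the adjusted p was at most 0.0195. Its intron reads averaged 14.9 ± 1.61 CPM in DEX and 9.74 ± 1.88 CPM in Mock. Their log2 change of 0.61 ± 0.25 did not pass the test (SE, adjusted p = 0.213, edgeR). Exon-exon reads of this gene stood at 19.7 ± 1.33 CPM in DEX and 12.2 ± 0.845 CPM in Mock.

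AT3G20898, an uncharacterized gene, fell in exon reads. It had 12.1, 9.36 and 12.7 CPM in DEX libraries 1, 2 and 3, against 21.6, 17.4 and 21.7 CPM in Mock libraries 1, 2 and 3. The groups were apart, and the log2 change was -0.83 ± 0.15 (SE, adjusted p = 0.0106, edgeR). With unique exon reads it was -0.87 ± 0.24 (SE, adjusted p = 0.0615), 43.5% of its gene reads being unique. Its intron reads averaged 2.16 ± 0.449 CPM in DEX and 3.14 ± 0.628 CPM in Mock, with overlap and a log2 change of -0.53 ± 0.29 (SE, adjusted p = 0.384, edgeR).

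**Figure D3:**
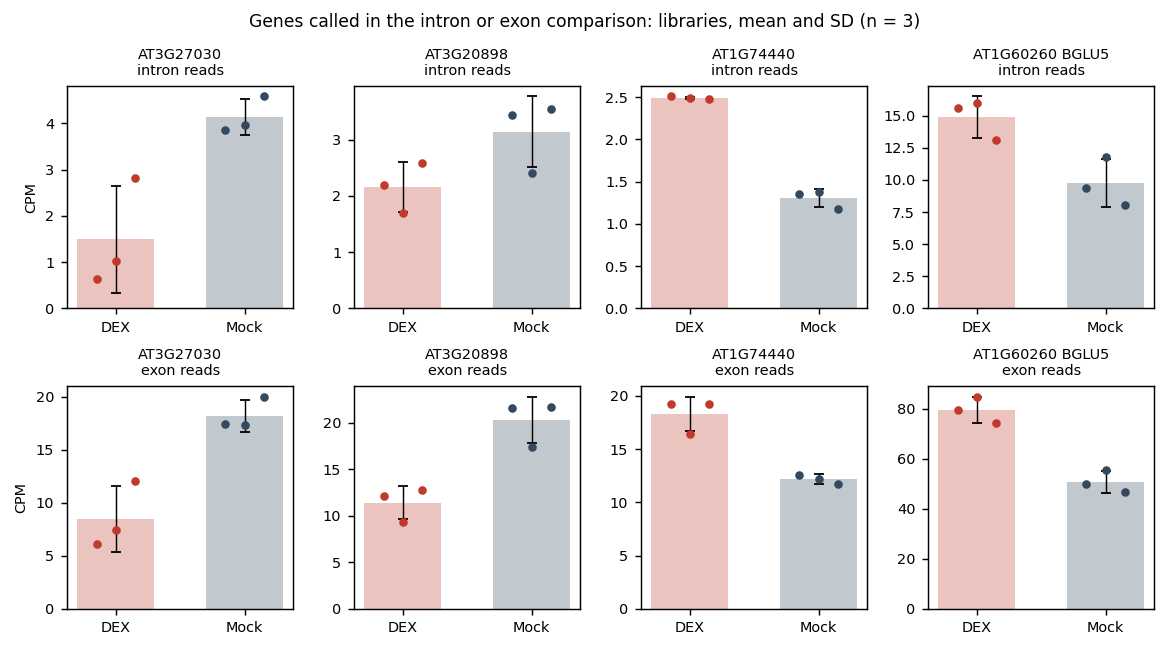
CPM (y axis, from 0) in DEX (red, left) and Mock (dark blue, right) for the 4 genes called in either comparison, with intron reads in the upper row and exon reads in the lower row. Points are libraries, bars are means and error bars SD (n = 3); the groups are apart in every panel except the intron reads of AT3G20898.

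Of the 8 genes with most intron reads, *BGLU5* alone was called, for exon reads. AT1G73885 had intron reads of 15.6, 14.4 and 16.3 CPM in DEX libraries 1, 2 and 3, against 16.5, 16.4 and 15.9 CPM in Mock libraries 1, 2 and 3. The log2 change was -0.07 ± 0.24 (SE, adjusted p = 0.935). Exon reads of this gene averaged 53.3 ± 5.65 CPM in DEX and 54.7 ± 2.83 CPM in Mock. Intron reads of AT7SL-1 averaged 10.7 ± 2.03 CPM in DEX and 12.3 ± 3.35 CPM in Mock, and those of *HSD2* 7.99 ± 0.45 CPM in DEX and 7.31 ± 1.64 CPM in Mock. *MIR162a* had 2.33 ± 0.253 CPM in DEX and 2.29 ± 0.111 CPM in Mock, a log2 change of 0.02 ± 0.26 (SE, adjusted p = 0.983). For *SULTR1;2* the difference in intron reads was 0.42 ± 0.45 on the log2 scale (SE, adjusted p = 0.752), and its 95% interval from -0.53 to 1.36 leaves room for changes in either direction. The 6 genes that match the mitochondrial genome had intron log2 changes from -0.25 to 0.37, and the smallest adjusted p was 0.6.

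Whether intron reads changed relative to exon reads was compared next, which sets aside a change shared by both read classes. A change of this ratio need not come from splicing, and no cause was tested. None of the 56 genes was called in this comparison by edgeR (0 rose and 0 fell), and 0 had an unadjusted p below 0.05. Of 2725 genes tested, 0.110% rose and 0.183% fell in this comparison. limma on log ratios also called 0 of the 56. The log2 change of the ratio ran from -0.45 in AT3G27030 to 0.42 in AT3G48030, with a median of 0.01. AT3G48030 belongs to the group only through its DEX libraries, so that its intron reads in DEX were partly selected to be high. The median standard error was 0.20, and every 95% interval lay between -0.94 and 0.84. Because intron reads never exceeded exon reads, this ratio cannot pass 1, which limits how far it could rise in genes where it was already high. Of all genes tested, 6.86% had an unadjusted p below 0.05. With exon reads less intron reads as the partner, which has no such limit if intron reads are part of exon reads, 0 of the 56 genes were called and 2 (3.57%) had an unadjusted p below 0.05, beside 6.98% of all genes. Over all genes 4 rose and 8 fell with this partner. The intervals of the 56 genes reached from -1.12 to 0.99, and 52 of them lay within 1 on the log2 scale to either side. With exon-exon reads as the partner, 27 of the 56 genes had enough reads, 0 were called and 2 (7.41%) had an unadjusted p below 0.05, beside 7.92% of all genes. Over all genes 7 rose and 6 fell there, and the intervals of the 27 genes reached from -1.85 to 1.65.

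**Figure D4:**
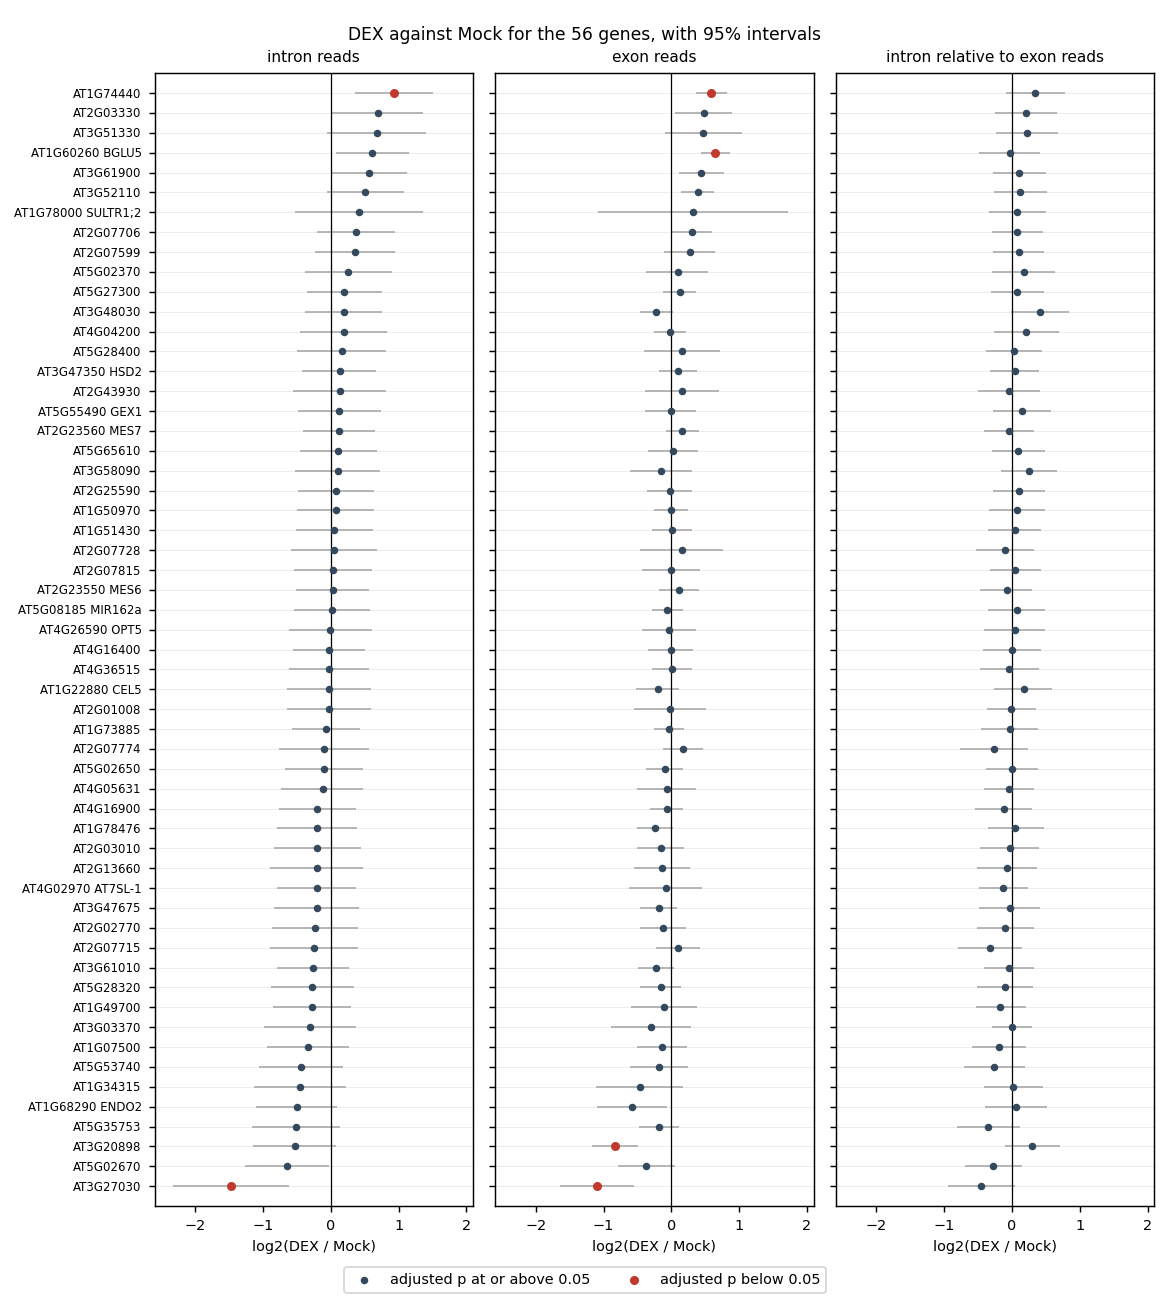
log2(DEX / Mock) for intron reads, exon reads and their ratio (x axes) in the 56 genes, ordered by the change of intron reads, with 95% intervals as lines. Red points passed an adjusted p of 0.05 (2 genes for intron reads, 4 for exon reads, 0 for the ratio); all intervals of the ratio lie between -0.94 and 0.84.

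The share, which divides by gene reads and not by exon reads, was compared as a description. The difference of the group means, DEX minus Mock, had a median of 0.0858 points, and 53 of the 56 differences were smaller than 5 points. The extremes were -7.07 points in AT1G07500 (49.7% ± 3.8 in DEX and 56.7% ± 5.88 in Mock) and 4.63 points in *GEX1* (38.4% ± 6.41 in DEX and 33.7% ± 3.82 in Mock). The libraries of the groups overlapped in both. In AT3G27030 the share was 10.3%, 13.7% and 22.6% in DEX libraries 1, 2 and 3, against 21.8%, 22.3% and 22.5% in Mock libraries 1, 2 and 3, so that DEX library 3 lay with the Mock values. DEX and Mock libraries did not overlap in 4 of the 56 genes, beside 12.9% of the 533 genes with 200 intron reads. AT1G74440 was the only one of the 4 also called for intron reads, and it met the 10% only through its DEX libraries, with shares of 10.5%, 12.2% and 10.7% in DEX libraries 1, 2 and 3, against 9.13%, 9.22% and 8.76% in Mock libraries 1, 2 and 3.

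Lists of genes for splicing, nonsense-mediated decay, the circadian clock, jasmonate, auxin and vascular regulation served for orientation. They were chosen with earlier results of these data known. None of the 105 genes in these 7 lists was among the 56. The 19 genes for SR proteins, which bind exons and recruit the spliceosome, had a median share of 0.668%. The highest was 4.79% in *SCL33*, whose own transcript is known to be alternatively spliced. None of the 19 was called for exon reads (0 rose, 0 fell), and their median log2 change was 0.02. The list of 17 other splicing regulators gave 0 calls as well. Its member *GRP8*, a glycine-rich RNA-binding protein that regulates the splicing of its own transcript, had 14591 intron reads at a share of 4.51%. None of the 4 genes of nonsense-mediated decay and none of the 15 circadian clock genes was called for exon reads. Of these, 1 and 4 had enough intron reads to be tested for intron reads and the ratio, with 0 calls.

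Jasmonate and auxin genes moved in both read classes while their shares were low. Because the lists were chosen with earlier results known, the numbers called are a description and no independent support for a response. Of 12 *JAZ* genes, which encode repressors of jasmonate signalling, 10 rose in exon reads and 6 of the 7 with enough intron reads rose in those, with median log2 changes of 1.57 and 1.68. None of the 7 was called for the ratio. In *JAZ10* intron reads rose by 4.58 ± 0.45 and exon reads by 4.23 ± 0.41 on the log2 scale (SE, adjusted p = 8.85e-06 and 0.000761). Of 25 auxin response genes 17 fell and 2 rose in exon reads, and all 3 with enough intron reads (*IAA2*, *IAA3* and *ARF4*) fell in those. *ARF4*, an AUXIN RESPONSE FACTOR gene, was also called for the ratio. It had 18 intron reads in DEX and 150 in Mock, and 9291 exon reads in DEX and 20793 in Mock, a log2 change of the ratio of -1.88 ± 0.37 (SE, adjusted p = 0.0156). Of 12 vascular regulators 5 fell and 1 rose in exon reads, and 1 of 3 fell in intron reads. The largest intron share in these last 3 lists was 4.88%, in *IAA29* with 10 intron reads.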

How the data were processed

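Per the study's methods, 50-nt single-end reads of 6 libraries were aligned by the authors to TAIR10 with CLC Genomics Workbench. The deposited tables hold counts per gene (total and unique gene, exon, exon-exon and intron reads) and RPKM values, which the authors computed from exon reads and exon length; RPKM was not used for tests. Entries without a name (5, 0.093% to 0.135% of reads) were left out, and repeated identifiers were summed, which left 33316 genes. Members and lists were chosen with earlier results of these data known.

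Intron and exon reads were each tested by the two-sided quasi-likelihood test of edgeR 4.0.16 (R 4.3.3), with filterByExpr, TMM factors of gene reads and Benjamini-Hochberg adjustment over all genes tested. The ratio was tested as the interaction of read class and treatment in 1 model over both read classes, with the library as a term. SE is the log2 change divided by the square root of F. The biological coefficient of variation was 26.3% for intron reads and 15.6% for exon reads. CPM of the 56 genes and *MYB95* is TMM-scaled. A count of 3 reads, the limit that 0 reads allows, is 0.0794 to 0.0982 CPM per library before scaling. P-values weigh the difference between treatments against the spread between libraries of a treatment, estimated with information shared across genes.

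Genes named are the 8 with most intron reads, the 8 with the highest share, all called genes, and the 3 nearest to the limit on either side. Others (*MES6*, AT2G03330, AT2G13660, AT5G28320, AT5G28400, the chromosome 2 genes, *MYB95*, *VGD1* and single list genes) were picked after their values were seen. Positions, sequences and overlaps come from RefSeq TAIR10.1, in which all 56 genes were found; the tables hold no coordinates. Mitochondrial matches were searched with blastn 2.17.0+. Alternatives used other scaling, filters, tools (limma 3.58.1, DESeq2 1.42.0), read classes and limits, and left out single libraries. In simulated data (2725 genes), 98% to 100% of intron changes by 2 on the log2 scale and 44% to 68% of those by 1 were recovered. For the ratio, 88% to 98% and 24% to 42% were recovered. The simulation used the same spread for both read classes, below the 26.3% of intron reads and above the 15.6% of exon reads. It drew intron and exon reads independently and changed only genes with higher intron counts, so these rates can be too high for the data. Equal replicate numbers were not treated as pairs in the main tests.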

Additional observations from a re-analysis of the deposited data

How the results depend on the processing

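The ratio of intron to exon reads gave 0 calls among the 56 genes under all alternatives run. For intron reads, the 1 rise became 0 with library totals, without a count filter, with DESeq2, with unique reads, at a share of at least 20%, with the limit met in each group alone and in the 33 genes outside the mitochondrial match with at least 90% unique reads; it became 5 at a share of at least 5%. The 1 fall became 0 with reads wholly inside introns. Without 1 library, rises were 0 in each case and falls 0 to 1. For exon reads, the 2 rises became 1 with unique exon reads, with the limit met in each group alone and in the 33 genes. They became 3 with DESeq2, 0 at a share of at least 20% and 9 at a share of at least 5%. The 2 falls became 1 with unique exon reads, at a share of at least 20% and in the 33 genes. At a share of at least 5% the falls became 4. Without 1 library, exon rises stayed at 2 and falls were 1 to 2. The share limits change the number of genes counted; for the remaining alternatives the cause was not tested. No called gene changed direction. The choices of reads wholly inside introns, unique intron reads, other partners for the ratio and the 33 genes were made after the data were seen. Library totals moved the median of all genes by less than 0.1.

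With a replicate block, 3 of the 56 rose in intron reads (AT1G74440, *BGLU5* and AT2G03330) and 5 in exon reads. The block changed neither the 1 fall in intron reads nor the 2 in exon reads, and gave 0 calls for the ratio among the 56. Over all genes the block gave 238 rises and 94 falls in intron reads, beside 141 and 56 without it. In exon reads these were 2239 and 1726, beside 1237 and 1068, and for the ratio 16 and 12, beside 3 and 5. Correlations of the deviations of equally numbered libraries were 0.516, 0.0188 and 0.506. DEX library 1 with Mock library 3 gave -0.468, and DEX library 3 with Mock library 1 gave -0.536. The other unequal pairs lay between -0.142 and 0.127. The main tests used no block, and whether equal numbers share an effect was not tested.

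For 29 of the 56 genes exon-exon reads were too few for a test.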
